A study of Mus musculus with 40 samples.

Results

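The epiblast (Epi) and the primitive endoderm (PrE) are the lineages into which the inner cell mass of the mouse blastocyst divides. Single cells of both lineages from embryonic day 4.0 (E4.0) were compared here, 10 Epi cells from 2 embryos against 13 PrE cells from 3 embryos, which together are 23 of the 40 single cells in the series. All 23 cells came from female hybrid embryos of C57BL/6J mothers crossed to CAST/EiJ fathers. The labels name no treatment and no engineered allele in any of these cells. Members were chosen by the stage in their label and by the lineage class that the study had assigned to each cell. Embryo 14 gave 9 of the Epi cells and 7 of the PrE cells, embryo 17 gave the remaining Epi cell, and embryos 15 and 16 gave 2 and 4 PrE cells. The class had been set from the RNA levels of lineage factors in the same cells, so differences in those factors are a description and carry no test, and genes that vary together with them are not independent of the class either.

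The Epi gives rise to the embryo proper, whereas the PrE forms the endoderm of the yolk sac and lies against the fluid of the blastocyst cavity. PrE cells are known to secrete a basement membrane, the sheet of laminin, type IV collagen, nidogen and heparan sulphate proteoglycan on which both layers rest. FGF4 made by Epi precursors acts on FGF receptors of their neighbours and is the signal best known for directing inner cell mass cells towards the PrE.

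Sequencing depth was 6013161 to 11236299 counts per Epi cell and 1019112 to 12689903 counts per PrE cell, and 3 PrE cells of embryo 14 held under 5000000 counts. Because cells of 1 embryo share their source, the cells' raw counts were added up for each class of an embryo. The resulting 2 Epi and 3 PrE sums were the replicates. Levels below are counts scaled to 1000000 (CPM) of the sums, in the order embryo 14 then 17 for Epi and embryos 14, 15 and 16 for PrE. The Epi value of embryo 17 is a single cell. Levels in individual cells are in RPRT, the authors' reads scaled to the retrotranscribed length of a transcript and to sequencing depth. Reads in both units lie near the 3′ end of each transcript.

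The labels of the classes were first checked against their markers. Nanog and Sox2, pluripotency factors of the Epi, ranged from 83.6 to 330.0 RPRT (median 263) and from 67.1 to 416 RPRT (median 220) in the 10 Epi cells. In the 13 PrE cells Nanog reached at most 68.1 RPRT and Sox2 at most 17.2 RPRT. Gata4 and Gata6, transcription factors of the PrE, ranged from 86 to 368 and from 78.2 to 409 RPRT in PrE cells and did not exceed 1.62 and 2.17 RPRT in any Epi cell. No cell overlapped the other class in any of these 4 genes. Markers of the trophectoderm, the outer layer of the blastocyst, were summed over a list of 20 genes and gave 169.6 and 189.5 CPM in the Epi sums against 378.5, 393.6 and 270.7 CPM in the PrE sums. The list included Fgfr2, an FGF receptor whose higher levels in PrE are given below. It also held Atp1b1, at 63.8 and 32.3 CPM in Epi and 111, 57.2 and 81.4 CPM in PrE. The total is therefore no measure of trophectoderm RNA alone. Eomes stood at 12 and 0.453 CPM in Epi and 31.2, 18.6 and 10.9 CPM in PrE. Aqp3 lay towards the Epi, at 0.45 and 10.2 CPM in Epi and 0, 0.154 and 0.223 CPM in PrE. Cdx2 did not exceed 0.113 CPM and Gata3 did not exceed 0.308 CPM, while Krt8, a keratin of simple epithelia, stood at 0.0771 and 0.113 CPM in Epi and 32.4, 58.8 and 2.21 CPM in PrE. Of the 11 markers that could be tested, 6 lay towards the PrE and 5 towards the Epi, and none passed the threshold. The part of trophectoderm RNA in the results below was not tested.

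Of 10711 autosomal genes tested with edgeR, 18 (0.168%) were higher in Epi and 51 (0.476%) were higher in PrE at an adjusted p under 0.05. At these shares, a short list without a called gene is not unusual. Leaving aside 8 lineage factors, 16 genes were higher in Epi and 45 were higher in PrE. Their log2 fold changes had sizes of at least 3.25, against a median of -0.14 over all genes tested, written throughout as Epi minus PrE. All 69 had sums that did not overlap between the classes, as did 14.2% of all tested genes in the direction of Epi and 14.3% in the direction of PrE. In 30 of the 69 the cells did not overlap in RPRT either, which held for 0.786% of all genes, and nothing is read from these shares because the calls rest on the same contrast. Removing the Epi sum of embryo 14 left 0 genes called by edgeR (1363 at an unadjusted p under 0.05), and the single cell of embryo 17 then stood alone for its class. Of the 61 genes outside the lineage factors, 17 (3 higher in Epi, 14 higher in PrE) stayed called whichever of the other 4 sums was left out. With embryo as a block in limma-voom, 167 genes were called higher in Epi and 108 higher in PrE, and 61 of the 69 remained. An adjusted p given below with the block is from this fit, which differs from edgeR in the test as well. An edgeR fit that also held the E3.5 cells, on all 15 sums, called 0 genes (932 at an unadjusted p under 0.05), whereas DESeq2 on the 5 sums called 805 and limma-voom without the block 184.

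**Figure D1:**
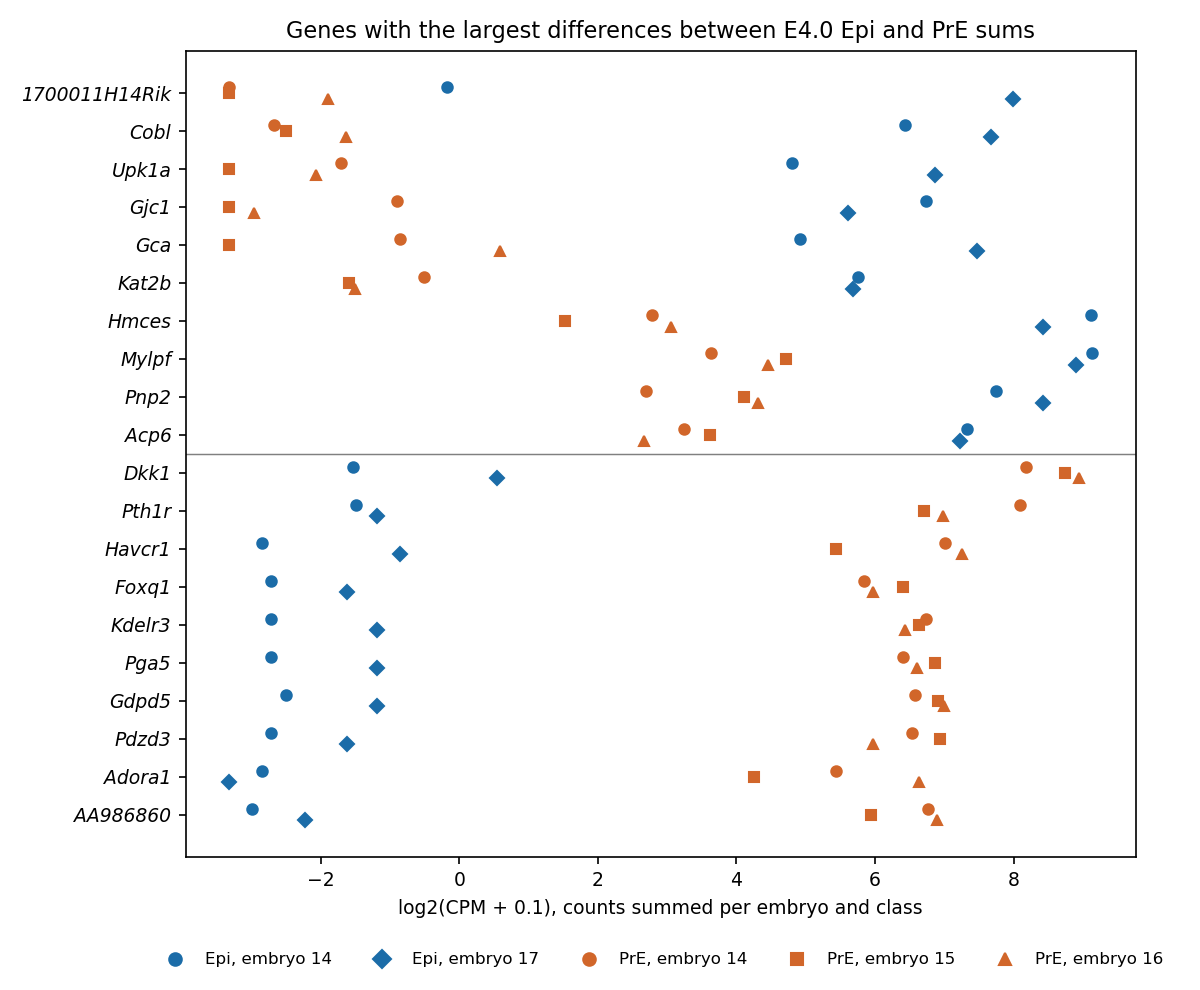
Levels of the 10 genes with the largest rise and the 10 with the largest fall in Epi against PrE, as log2(CPM + 0.1) of each sum; colour gives the class and marker shape the embryo, and the grey line separates the 2 sets. The ranking covers called genes outside the lineage factors with a mean of at least 50 CPM in the higher class. In every row the 2 Epi sums and the 3 PrE sums do not overlap. In 1700011H14Rik the Epi sum of embryo 14 lies far below that of embryo 17.

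The 10 largest differences towards the PrE were in genes of varied function, with Dkk1, Pth1r and Kdelr3 among them. This ranking covers called genes outside the lineage factors with a mean of at least 50 CPM in the higher class. Dkk1, a secreted inhibitor of WNT signalling, stood at 0.244 and 1.36 CPM in Epi and 290.1, 426 and 490.2 CPM in PrE (log2 fold change -9.17 ± 1.06 SE, adjusted p = 0.00218). Pth1r, the receptor for parathyroid hormone and its related peptide, stood at 0.257 and 0.34 CPM in Epi and 272, 104 and 127 CPM in PrE (log2 fold change -9.18 ± 1.06 SE, adjusted p = 0.00218). Havcr1, a cell surface receptor for phosphatidylserine, stood at 0.0386 and 0.453 CPM in Epi and 129, 43.2 and 152 CPM in PrE (log2 fold change -9.25 ± 1.48 SE, adjusted p = 0.0141). These 3 genes of signalling and surface recognition were near 0 in both Epi sums and high in each PrE sum. Adora1, the A1 adenosine receptor, stood at 0.0386 and 0 CPM in Epi and 43.3, 19 and 99.1 CPM in PrE, and its pooled ratio was 1728-fold (95% counting interval 591 to 8378) on 3 reads in Epi. AA986860, a gene with no role stated here, had a pooled ratio of 3071-fold (1051 to 14891), also on 3 Epi reads. Intervals of this kind cover counting error only. Foxq1, a forkhead transcription factor, stood at 0.0514 and 0.227 CPM in Epi and 57.3, 84.5 and 62.4 CPM in PrE (log2 fold change -9.29 ± 1.45 SE, adjusted p = 0.0114). Kdelr3, a receptor that returns escaped endoplasmic reticulum (ER) proteins from the Golgi, stood at 0.0514 and 0.34 CPM in Epi and 107, 99.2 and 86.2 CPM in PrE (log2 fold change -9.39 ± 1.33 SE, adjusted p = 0.00641). Pga5, a pepsinogen, stood at 0.0514 and 0.34 CPM in Epi and 84.6, 116 and 97.3 CPM in PrE. Gdpd5, a glycerophosphodiester phosphodiesterase, stood at 0.0771 and 0.34 CPM in Epi and 95.3, 120.0 and 127 CPM in PrE. Pdzd3, a scaffold protein with PDZ domains, stood at 0.0514 and 0.227 CPM in Epi and 92.5, 122 and 62.3 CPM in PrE. The adjusted p of these 3 genes were 0.00641, 0.0036 and 0.00551. All of these except Adora1 stayed called when any single sum other than the Epi sum of embryo 14 was left out, and Adora1 lost the call without Epi embryo 17 or PrE embryo 16.

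The largest differences towards the Epi, ranked in the same way, were likewise in genes of varied function, with Cobl, Hmces and Gjc1 among them. Called genes below that mean CPM, such as Cd37 (log2 fold change 10.33) and Capsl (9.71), are left out. Hmces, which shields abasic sites in DNA, stood at 552 and 344 CPM in Epi and 6.75, 2.77 and 8.21 CPM in PrE (log2 fold change 6.24 ± 0.72 SE, adjusted p = 0.00218). Mylpf, a regulatory light chain of myosin best known in fast skeletal muscle, stood at 563 and 476 CPM in Epi and 12.3, 26.2 and 21.8 CPM in PrE (log2 fold change 4.69 ± 0.62 SE, adjusted p = 0.00379). Cobl, an actin nucleator, stood at 86.2 and 205 CPM in Epi and 0.0566, 0.0769 and 0.223 CPM in PrE (log2 fold change 10.18 ± 1.13 SE, adjusted p = 0.00218). These 3 genes were the Epi-high genes that stayed called without any 1 of the sums other than Epi embryo 14. Acp6, a phosphatase of lysophosphatidic acid, stood at 160.2 and 149 CPM in Epi and 9.35, 12.2 and 6.26 CPM in PrE (log2 fold change 4.06 ± 0.75 SE, adjusted p = 0.0317). Upk1a, a tetraspanin of the uroplakin family, stood at 27.8 and 117 CPM in Epi and 0.207, 0 and 0.14 CPM in PrE (log2 fold change 9.09 ± 1.55 SE, adjusted p = 0.0211). Kat2b, a histone acetyltransferase, stood at 53.8 and 51 CPM in Epi and 0.603, 0.231 and 0.251 CPM in PrE (log2 fold change 7.14 ± 1.44 SE, adjusted p = 0.0499). Gjc1, which encodes connexin 45, a gap junction protein, stood at 106 and 48.5 CPM in Epi and 0.434, 0 and 0.0279 CPM in PrE (log2 fold change 8.78 ± 1.63 SE, adjusted p = 0.032). Gca, a calcium-binding protein known from granulocytes, stood at 30.1 and 178 CPM in Epi and 0.453, 0 and 1.4 CPM in PrE (log2 fold change 7.34 ± 1.49 SE, adjusted p = 0.0499). In each of these 5 genes the Epi sums were high and the PrE sums lay under 13 CPM. Each lost its call when Epi embryo 17 was left out. Acp6 also lost it without PrE embryo 16, and Kat2b without PrE embryo 14, 15 or 16. Gjc1 also lost it without PrE embryo 15 or 16, and Gca without PrE embryo 14 or 15. The call of 1700011H14Rik rested on 1 cell: it stood at 0.784 and 254 CPM in Epi and 0, 0 and 0.168 CPM in PrE. Its adjusted p was 0.0449 in edgeR and 0.266 in limma-voom with the embryo block.

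The basement membrane and collagen processing list held 8 called genes, as many as the lineage factors and more than any of the other lists. The lists were chosen with earlier results of these data known, so their ranking is a description and no test. Of its 26 members, all tested, 7 were higher in PrE and 1 was higher in Epi, beside 0.476% and 0.168% of all genes tested. Its median log2 fold change was -2.74. By type of protein, the PrE-high genes were the 3 chains of laminin-111, both type IV collagen chains of the common network and 2 proteins that act on collagen inside the ER. Lama1, the alpha 1 chain of laminin, stood at 8.34 and 7.82 CPM in Epi and 3071, 1716 and 2010.5 CPM in PrE (log2 fold change -8.13 ± 0.84 SE, adjusted p = 0.00208). Lamb1, the beta 1 chain, stood at 98.6 and 36.8 CPM in Epi and 4178, 3252 and 2724 CPM in PrE (log2 fold change -5.64 ± 0.83 SE, adjusted p = 0.00831). Lamc1, the gamma 1 chain, stood at 103 and 89.1 CPM in Epi and 3095, 678 and 1349 CPM in PrE (log2 fold change -4.15 ± 0.81 SE, adjusted p = 0.0403). The alpha 1 chain thus differed by a larger log2 value than its beta and gamma partners, whose RNA remained at 36.8 to 103 CPM in the Epi sums, although the difference between these fold changes was not tested. Col4a1 stood at 19.2 and 1.25 CPM in Epi and 449, 336 and 374 CPM in PrE (log2 fold change -5.21 ± 1.05 SE, adjusted p = 0.0496). Col4a2, its partner in the type IV collagen trimer, stood at 25.7 and 74 CPM in Epi and 1110.2, 1143 and 631 CPM in PrE (log2 fold change -4.27 ± 0.75 SE, adjusted p = 0.0247). Serpinh1, the collagen chaperone HSP47, stood at 10.03 and 67.2 CPM in Epi and 822, 1178 and 795 CPM in PrE (log2 fold change -4.60 ± 0.88 SE, adjusted p = 0.0363). P4ha2, a catalytic subunit of collagen prolyl 4-hydroxylase, stood at 1.88 and 2.15 CPM in Epi and 643, 522 and 419 CPM in PrE (log2 fold change -8.04 ± 0.79 SE, adjusted p = 0.00208). Per cell, Lama1 ranged from 0 to 22.5 RPRT in Epi and from 75.5 to 889 RPRT in PrE. The cells of the classes did not overlap for Lama1, Col4a2, Serpinh1 and P4ha2. They did overlap for Lamb1, Lamc1 and Col4a1. Of all genes, 0.786% had cells that did not overlap.

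**Figure D2:**
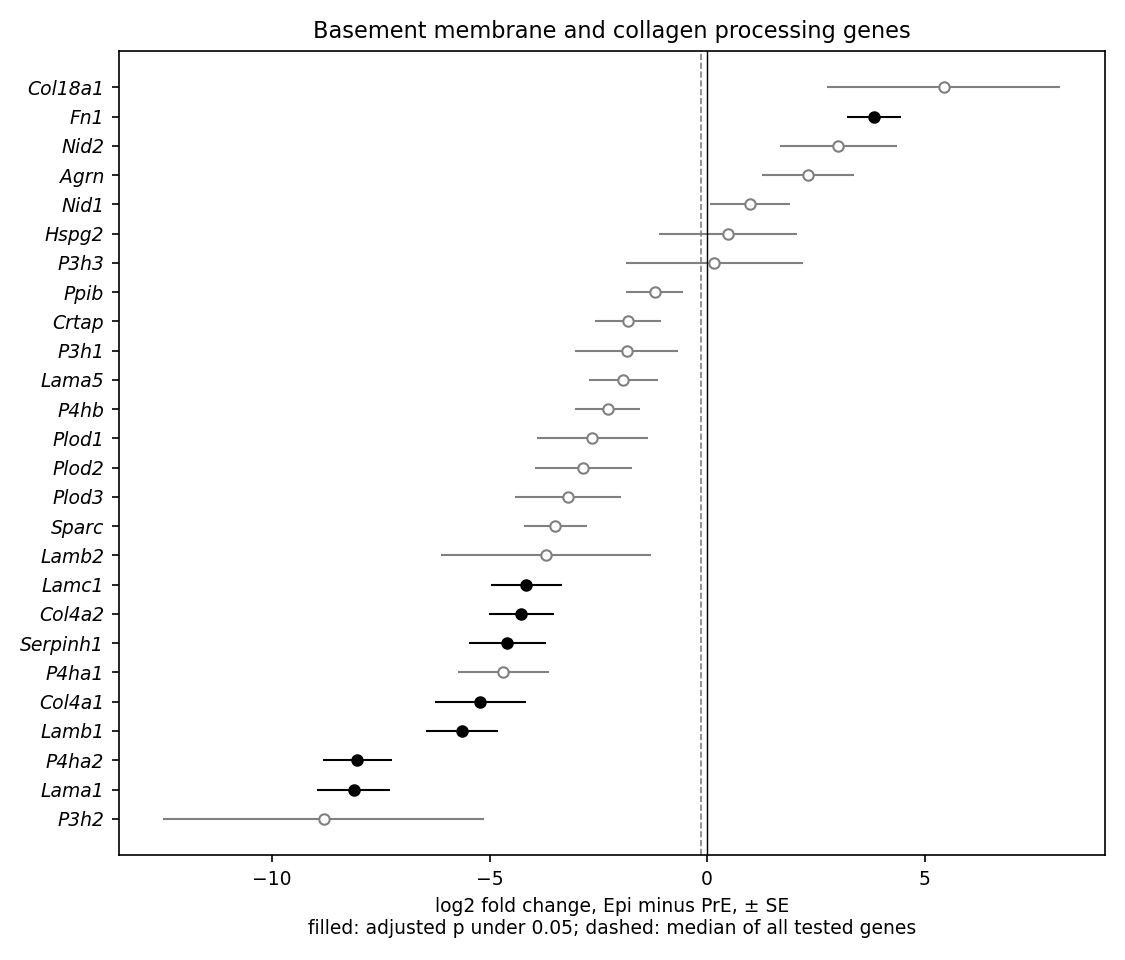
Log2 fold change of Epi against PrE (± SE) for each of the 26 basement membrane and collagen processing genes; filled points passed an adjusted p of 0.05 in edgeR and the dashed line is the median of all genes tested. Of the called genes, 7 lie to the left of 0 and Fn1 lies to the right.

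Fn1, fibronectin, was called in the opposite direction, at 1181 and 2247 CPM in Epi and 67.5, 137 and 154 CPM in PrE (log2 fold change 3.84 ± 0.62 SE, adjusted p = 0.0151). Its Epi cells held 51 to 673 RPRT, median 282. Its PrE cells held 3.79 to 127 RPRT, median 20.8, and the classes overlapped. Sparc, a collagen-binding matrix protein, stood at 142 and 382 CPM in Epi and 2910.2, 3178 and 2777 CPM in PrE and fell short of the threshold (log2 fold change -3.50 ± 0.72 SE, adjusted p = 0.0542). With the embryo block its adjusted p was 0.00257. P4ha1, another catalytic hydroxylase subunit, stood at 11.7 and 1.93 CPM in Epi and 191, 62.5 and 277 CPM in PrE (adjusted p = 0.0728). P4hb, the shared beta subunit, stood at 327 and 186 CPM in Epi and 1948, 426 and 1394 CPM in PrE (adjusted p = 0.217). None of the linker and proteoglycan genes of the basement membrane was called. Nid1, a nidogen that bridges laminin and collagen, stood at 57 and 102 CPM in Epi and 58, 6.46 and 55.7 CPM in PrE (adjusted p = 0.803). Nid2, the other nidogen, stood at 221 and 134 CPM in Epi and 54.7, 0.0769 and 11 CPM in PrE (adjusted p = 0.39). Agrn, agrin, stood at 92.2 and 41.7 CPM in Epi and 28.6, 5.85 and 5.98 CPM in PrE (adjusted p = 0.408). The list's 7 PrE-high calls numbered 4 without scaling or without PrE embryo 16, and 3 without Epi embryo 17. Fn1 lost its call without Epi embryo 17 or PrE embryo 16.

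Outside the list, several PrE-high genes have roles that touch the making of matrix and glycans, and these were picked after their values were seen. Aldh18a1, which makes the pyrroline carboxylate from which proline is formed, stood at 7.55 and 11.3 CPM in Epi and 297, 137 and 131 CPM in PrE (log2 fold change -4.32 ± 0.79 SE, adjusted p = 0.0317). Oat, which interconverts ornithine and the same intermediate, stood at 2.44 and 0.113 CPM in Epi and 353, 74.1 and 95.2 CPM in PrE (log2 fold change -6.97 ± 1.34 SE, adjusted p = 0.0362). Uap1, which makes UDP-N-acetylglucosamine, stood at 23 and 18 CPM in Epi and 238, 181 and 302 CPM in PrE (log2 fold change -3.55 ± 0.68 SE, adjusted p = 0.0362). These 3 enzymes of proline and amino sugar supply were higher in each PrE sum than in either Epi sum, as was every gene called higher in PrE. Hs3st1, a heparan sulphate 3-O-sulphotransferase, stood at 0.0514 and 0.68 CPM in Epi and 108, 38.8 and 77.1 CPM in PrE (adjusted p = 0.0363). Gcnt1, a glycan-branching transferase, stood at 0.72 and 0.227 CPM in Epi and 59.2, 38 and 107 CPM in PrE (adjusted p = 0.0317). Rcn3, a calcium-binding protein of the ER lumen, stood at 3.66 and 4.08 CPM in Epi and 315, 369 and 225 CPM in PrE (log2 fold change -6.29 ± 0.76 SE, adjusted p = 0.0025) and kept its call without any 1 sum other than Epi embryo 14. Ckap4, an ER membrane protein that shapes ER sheets, stood at 61.5 and 55.5 CPM in Epi and 672, 492 and 576 CPM in PrE (adjusted p = 0.0317). The remaining genes of this paragraph lost their calls without Epi embryo 17. Aldh18a1 and Oat also lost them without PrE embryo 14, and Uap1, Gcnt1 and Ckap4 without PrE embryo 16. Hs3st1 also lost its call without PrE embryo 14 or 16.

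**Figure D3:**
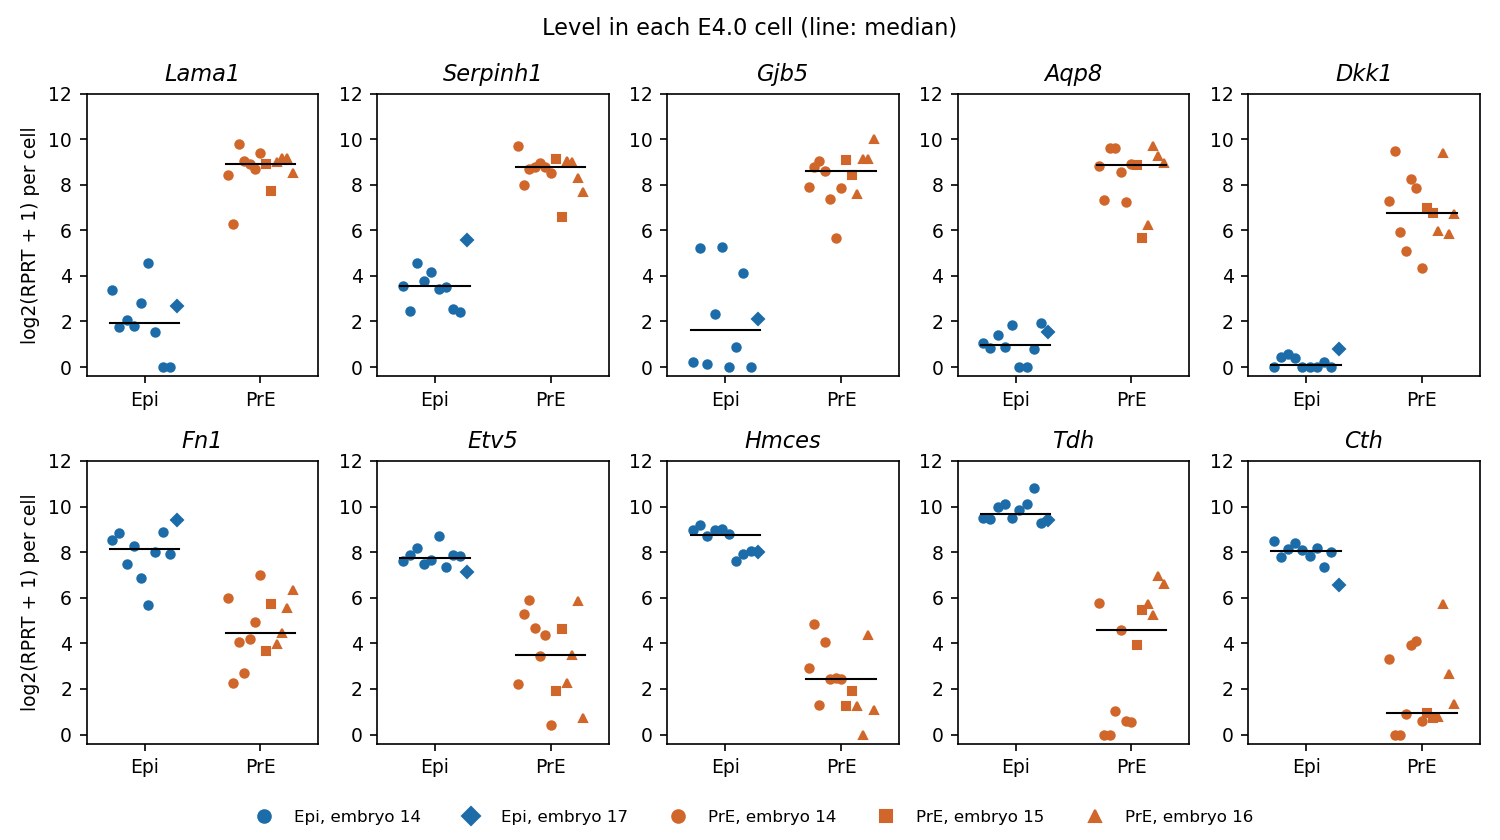
Level of 10 genes in each E4.0 cell, as log2(RPRT + 1); each point is a cell, its shape gives the embryo and the black line is the class median. The 10 genes were picked for display, so their overlap is not typical of the differences. Epi and PrE cells do not overlap in 9 of them and overlap in Fn1. The cells do not overlap in 30 of the 69 called genes and in 0.786% of all genes.

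Machinery of the early secretory route lay mostly on the PrE side, with few single genes called. In the ER translocation and folding list 34 of 35 tested genes had a negative log2 fold change and the median was -1.05. The ER to Golgi transport list had 32 of 36 below 0 and a median of -1.15, while of all genes tested 54.4% were below 0 with a median of -0.14. Only Kdelr3 of both lists was called, and 28.6% and 27.8% of the lists, against 7.19% of all genes, had an unadjusted p under 0.05 in that direction. Pdia6, a protein disulphide isomerase, stood at 601 and 373 CPM in Epi and 2146, 1193 and 1703 CPM in PrE (log2 fold change -1.79 ± 0.62 SE, adjusted p = 0.255). Dnajb11, a co-chaperone of BiP, stood at 69.9 and 72.2 CPM in Epi and 317, 213 and 192 CPM in PrE (log2 fold change -1.76 ± 0.60 SE, adjusted p = 0.253). Creb3l2, a transcription factor of the ER membrane, stood at 3.21 and 22.1 CPM in Epi and 95.8, 76.8 and 137 CPM in PrE, with an adjusted p of 0.217 and of 0.0329 with the embryo block. For each of these 3 genes, which were named for a low p, every PrE sum lay above both Epi sums. So it was for 45.7% of the ER translocation and folding list and 14.3% of all genes tested. Sec24d, a cargo-binding coat protein of vesicles that leave the ER, stood at 0.0257 and 0.113 CPM in Epi and 32.7, 6.77 and 45.9 CPM in PrE (adjusted p = 0.109, and 0.0294 with the block). Gorasp2, a Golgi stacking protein, stood at 85.8 and 35.7 CPM in Epi and 324, 387 and 299.7 CPM in PrE (adjusted p = 0.123). Arf4, a small GTPase of the Golgi, stood at 93.8 and 153 CPM in Epi and 413, 291 and 551 CPM in PrE (adjusted p = 0.242). In simulated data of this size 6% of 4-fold changes and 72% of 16-fold changes were found, so differences of the size seen in these lists were mostly not detectable gene by gene.

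**Figure D4:**
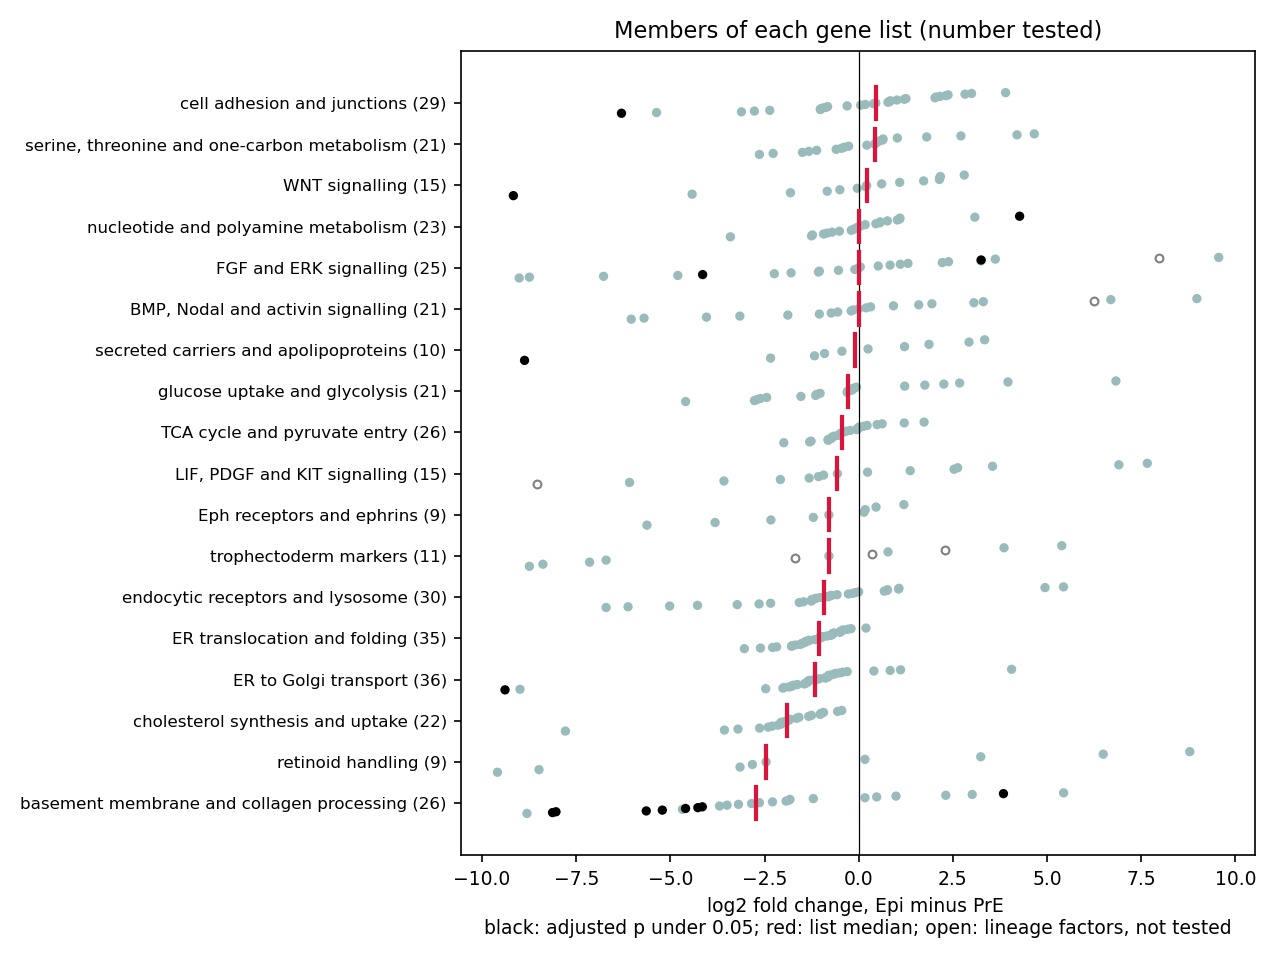
Log2 fold change of Epi against PrE for the tested members of each list, with black points for genes at an adjusted p under 0.05, open points for lineage factors, which are not tested, and a red bar at the list median. The basement membrane list has the lowest median, -2.74, and the cell adhesion list the highest, 0.45.

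Genes of endocytosis and the lysosome lay mostly on the PrE side, with no call, while secreted carriers were divided evenly. Of 30 tested genes of the endocytosis and lysosome list 23 had a negative log2 fold change, the median was -0.92 and none was called. Cubn, cubilin, a receptor for vitamin B12 carriers and apolipoproteins that the visceral endoderm is known to use, stood at 0.321 and 10.4 CPM in Epi and 321, 73.2 and 116 CPM in PrE (adjusted p = 0.139, and 0.0456 with the block). Lrp2, megalin, its partner in uptake, stood at 0.116 and 1.02 CPM in Epi and 127, 14.9 and 21.2 CPM in PrE (adjusted p = 0.123). Ctsl, a lysosomal protease, stood at 366 and 691 CPM in Epi and 2829, 2558 and 2646 CPM in PrE (adjusted p = 0.146, and 0.0116 with the block). Ctsz, another such protease, stood at 34.6 and 1.59 CPM in Epi and 638, 164 and 261 CPM in PrE (adjusted p = 0.139). Each PrE sum lay above both Epi sums in these 4 genes, which were named for a low p. The same held for 43.3% of the list and 14.3% of all genes tested. Tfrc, the transferrin receptor, ran the other way at 13.9 and 264 CPM in Epi and 0.924, 1.08 and 7.57 CPM in PrE (adjusted p = 0.0978), and its high Epi value was the single cell of embryo 17. Among secreted carriers, 12 of 22 genes failed the filter on low counts, including Afp, Alb, Ttr, Trf, Apoa1 and Apob, the plasma proteins for which later yolk sac endoderm is known. Of the 10 tested, 5 had a positive and 5 a negative log2 fold change, with a median of -0.10 beside -0.14 for all genes. The list's only called gene, Aqp8, is a water channel and no secreted protein: it stood at 0.668 and 2.49 CPM in Epi and 616, 698 and 776 CPM in PrE (log2 fold change -8.87 ± 0.94 SE, adjusted p = 0.00208) and its cells did not overlap between the classes. Cpn1, a subunit of the secreted carboxypeptidase N, was also called, at 0.373 and 2.15 CPM in Epi and 222, 1071 and 147 CPM in PrE (log2 fold change -8.71 ± 1.35 SE, adjusted p = 0.011), with an adjusted p of 0.0545 with the block. Pyy, a gut peptide hormone, stood at 0.103 and 1.47 CPM in Epi and 91.4, 295 and 74.4 CPM in PrE (log2 fold change -7.81 ± 1.41 SE, adjusted p = 0.0298). Cpn1 lost its call without Epi embryo 17, Pyy without PrE embryo 15, and Aqp8 in neither case.

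Sterol genes leaned to the PrE as a list, with no gene called. All 22 tested genes of cholesterol synthesis and uptake had a negative log2 fold change, with a median of -1.90, and 7 (31.8%) had an unadjusted p under 0.05, against 54.4% below 0 and 7.19% under that p in the same direction among all genes. Fdps, farnesyl diphosphate synthase, stood at 138 and 115 CPM in Epi and 676, 1169 and 169.9 CPM in PrE (log2 fold change -2.40 ± 0.78 SE, adjusted p = 0.217). Mvk, mevalonate kinase, stood at 22 and 14.3 CPM in Epi and 95.4, 146 and 27.3 CPM in PrE (log2 fold change -2.30 ± 0.91 SE, adjusted p = 0.322). Acat2, which joins acetyl groups at the entry to the pathway, stood at 60.7 and 65.2 CPM in Epi and 206, 293 and 94.4 CPM in PrE (log2 fold change -1.65 ± 0.67 SE, adjusted p = 0.338). Stard4, a sterol carrier, stood at 0.0643 and 0.227 CPM in Epi and 73.7, 7.23 and 5.22 CPM in PrE (log2 fold change -7.79 ± 2.27 SE, adjusted p = 0.18). In each of these 4 genes the PrE sum of embryo 16 was the lowest of the 3 and lay closest to the Epi values. Elovl1, an enzyme that lengthens very long fatty acids and lies outside the list, was called, at 3.51 and 1.36 CPM in Epi and 135, 168 and 144 CPM in PrE (log2 fold change -5.90 ± 0.90 SE, adjusted p = 0.0103). It lost the call without Epi embryo 17.

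Carbohydrate genes lay in both directions, more of them on the PrE side. None of 21 tested genes of glucose uptake and glycolysis was called, and the median log2 fold change was -0.30. Of these, 15 (71.4%) had a negative log2 fold change, against 54.4% of all genes tested. Pfkl, the liver type of phosphofructokinase, stood at 95.9 and 23.1 CPM in Epi and 472, 421 and 268 CPM in PrE (log2 fold change -2.70 ± 0.73 SE, adjusted p = 0.139). Pfkp, the platelet type of the same enzyme, stood at 647 and 221 CPM in Epi and 30.3, 185 and 56.8 CPM in PrE (log2 fold change 2.26 ± 0.77 SE, adjusted p = 0.247), with an adjusted p of 0.025 with the block. The 2 isozymes lay in opposite directions. Pfkp did not overlap between Epi cells (67.1 to 346 RPRT, median 147) and PrE cells (0.0597 to 58.7 RPRT, median 6.35). Tpi1, triose phosphate isomerase, stood at 156 and 32.9 CPM in Epi and 399, 703 and 637 CPM in PrE (adjusted p = 0.168). Eno3, the muscle form of enolase, stood at 8.83 and 0.34 CPM in Epi and 0.0189, 0 and 0.0838 CPM in PrE (adjusted p = 0.299). Slc2a1, the glucose transporter GLUT1, stood at 203 and 151 CPM in Epi and 97.2, 37.1 and 23.3 CPM in PrE (adjusted p = 0.339). Slc2a3, the transporter GLUT3, stood at 136 and 167 CPM in Epi and 789, 271 and 257 CPM in PrE (adjusted p = 0.365). A pair of sugar genes outside the list was called in the PrE direction. Hkdc1, which holds a hexokinase domain, stood at 0.0386 and 0.68 CPM in Epi and 67.1, 87.8 and 75.6 CPM in PrE (log2 fold change -8.03 ± 1.52 SE, adjusted p = 0.0348). Pgam2, a phosphoglycerate mutase known from muscle, stood at 1.75 and 0.907 CPM in Epi and 69.5, 366 and 121 CPM in PrE (log2 fold change -7.08 ± 1.08 SE, adjusted p = 0.0103), with an adjusted p of 0.0874 with the block. Hkdc1 lost its call without PrE embryo 15 or 16, and Pgam2 without Epi embryo 17. None of the 26 tested genes of the TCA cycle and pyruvate entry was called, with a median of -0.44 and 19 (73.1%) below 0. Mpc1, a subunit of the mitochondrial pyruvate carrier, stood at 161 and 264 CPM in Epi and 37.8, 96.1 and 58 CPM in PrE (adjusted p = 0.287). Suclg1, a subunit of succinyl-CoA ligase, stood at 446 and 359.7 CPM in Epi and 476, 1432 and 1078 CPM in PrE (adjusted p = 0.446). Aco1, the cytosolic aconitase, stood at 53 and 36.7 CPM in Epi and 104, 116 and 104 CPM in PrE (adjusted p = 0.525). Dlst, a subunit of oxoglutarate dehydrogenase, stood at 51.4 and 0.453 CPM in Epi and 99, 109 and 102 CPM in PrE (adjusted p = 0.623).

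Among enzymes of amino acid and purine metabolism Pnp2 was called higher in Epi, whereas Aldh18a1 and Oat, described above, were called higher in PrE. Tdh, threonine dehydrogenase, which feeds glycine and acetyl-CoA and on which mouse embryonic stem cells are known to depend, stood at 1459 and 1014 CPM in Epi and 5.94, 66.3 and 129 CPM in PrE (log2 fold change 4.20 ± 0.93 SE, adjusted p = 0.0728). Cth, cystathionine gamma-lyase, which makes cysteine, stood at 433 and 157 CPM in Epi and 8.18, 1.54 and 25.1 CPM in PrE (log2 fold change 4.66 ± 0.98 SE, adjusted p = 0.0599). Neither passed the edgeR threshold, both did with the embryo block (adjusted p = 0.00684 and 0.0229), and in both no Epi cell overlapped a PrE cell. Epi cells held 619.6 to 1820.1 RPRT of Tdh, median 824, and PrE cells 0 to 124 RPRT, median 23.1. Phgdh, the entry enzyme of serine synthesis, lay on the other side, at 91.2 and 24.1 CPM in Epi and 279, 254 and 305 CPM in PrE (adjusted p = 0.199). The list of serine, threonine and one-carbon genes had no call among 21 and a median of 0.43. In the nucleotide and polyamine list of 23 tested genes, 1 was called. Pnp2, a purine nucleoside phosphorylase, stood at 214 and 343 CPM in Epi and 6.37, 17.2 and 19.7 CPM in PrE (log2 fold change 4.27 ± 0.71 SE, adjusted p = 0.0179) and lost its call without Epi embryo 17. Pnp, its near-identical neighbour, stood at 699 and 1149.8 CPM in Epi and 43.7, 152 and 132 CPM in PrE (log2 fold change 3.08 ± 0.64 SE, adjusted p = 0.055), and reads may have been split between the copies, so that their separate levels are uncertain. Ada, adenosine deaminase, which acts one step before them, stood at 15.8 and 0.794 CPM in Epi and 81.4, 45 and 139.8 CPM in PrE (adjusted p = 0.269). Ctps, CTP synthase, stood at 177 and 213 CPM in Epi and 125, 43.2 and 106 CPM in PrE (adjusted p = 0.57).

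FGF signalling genes lay in both directions, also among genes of the same role. Fgf4, the ligand, stood at 152 and 188 CPM in Epi and 0.453, 0.308 and 1.2 CPM in PrE and is counted among the lineage factors, so no test is given. Fgf10, another ligand of the family, stood at 0.193 and 52.7 CPM in Epi and 102, 117 and 155 CPM in PrE (adjusted p = 0.612, and 0.035 with the block). Etv5, a transcription factor that ERK signalling induces, was higher in Epi, at 751 and 414 CPM in Epi and 38.4, 73.8 and 71.6 CPM in PrE (log2 fold change 3.25 ± 0.59 SE, adjusted p = 0.0298), and its cells did not overlap. Etv1, of the same family, stood at 50.1 and 27.2 CPM in Epi and 0.0189, 0 and 0.112 CPM in PrE (log2 fold change 9.56 ± 1.96 SE, adjusted p = 0.0512), with an adjusted p of 0.00887 with the block. Dusp6, a phosphatase of ERK, stood at 77.5 and 41.9 CPM in Epi and 0.0566, 0.0769 and 14.3 CPM in PrE (adjusted p = 0.472, and 0.0352 with the block). Dusp4, another ERK phosphatase, was higher in PrE, at 26.3 and 9.75 CPM in Epi and 203, 478 and 279 CPM in PrE (log2 fold change -4.14 ± 0.77 SE, adjusted p = 0.0326). Etv5 and Dusp4 both lost their calls without Epi embryo 17 or PrE embryo 16, and Dusp4 also without PrE embryo 15. Fgfr2, a receptor, stood at 0 and 0.453 CPM in Epi and 27.2, 97.3 and 81 CPM in PrE (log2 fold change -8.74 ± 1.97 SE, adjusted p = 0.0766), with an adjusted p of 0.0262 with the block, whereas Fgfr1 stood at 30.3 and 23.9 CPM in Epi and 22.2, 18.7 and 41.4 CPM in PrE (adjusted p = 0.998). Of the 25 tested genes of the list, 13 had a positive and 12 a negative log2 fold change, and the median was 0.01.

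Ligands and receptors of other pathways are given list by list. Of all genes tested, 0.168% were called higher in Epi and 0.476% higher in PrE, so nothing is read from few calls in short lists. Dkk1, described above, was the only called gene of 15 in the WNT list, whose median was 0.21. Tcf7l1, a repressor that binds WNT targets, stood at 71 and 199.5 CPM in Epi and 31.8, 18.3 and 41.4 CPM in PrE (adjusted p = 0.265). Sfrp1, a secreted WNT binder, stood at 35.2 and 15.8 CPM in Epi and 67.1, 20.1 and 181 CPM in PrE (adjusted p = 0.528). Axin2, a WNT target, stood at 0.0771 and 0 CPM in Epi and 1.92, 0.308 and 1.12 CPM in PrE (adjusted p = 0.51). None of 21 genes of the BMP, Nodal and activin list was called. Tdgf1, the Nodal co-receptor CRIPTO, stood at 1301 and 226 CPM in Epi and 10.4, 171 and 50.6 CPM in PrE (log2 fold change 3.31 ± 0.98 SE, adjusted p = 0.184), with an adjusted p of 0.016 with the block, and no Epi cell overlapped a PrE cell in RPRT. Nodal itself stood at 1.2 and 2.15 CPM in Epi and 0, 0 and 0 CPM in PrE (adjusted p = 0.184). Smad7, an inhibitor in the pathway, stood at 3.37 and 3.97 CPM in Epi and 0.0566, 0 and 0.0279 CPM in PrE (adjusted p = 0.265). Both were low in all sums and at or near 0 in PrE. Bmp4, a ligand that is also a lineage factor, stood at 309 and 370.0 CPM in Epi and 0.0943, 1.69 and 11.6 CPM in PrE and is given without a test. Pdgfra, the platelet-derived growth factor receptor, is a lineage factor too and stood at 0.283 and 0.907 CPM in Epi and 284, 108 and 209.7 CPM in PrE. Igfbp2, a binding protein of insulin-like growth factors, stood at 152 and 203 CPM in Epi and 0, 0 and 4.36 CPM in PrE (log2 fold change 6.91 ± 1.81 SE, adjusted p = 0.129), with an adjusted p of 0.00887 with the block. Stat3, which LIF receptors activate, stood at 10.5 and 0.907 CPM in Epi and 80.3, 29.1 and 97.6 CPM in PrE (adjusted p = 0.251). Il6ra, an interleukin 6 receptor, stood at 9.06 and 0.453 CPM in Epi and 0, 0 and 0.0559 CPM in PrE (adjusted p = 0.274). In Igfbp2 and Il6ra both Epi sums lay above all PrE sums, and in Stat3 below them. These genes were named for a low p, and 14.2% and 14.3% of all genes tested did the same in those directions. The Il6ra reads of Epi came mostly from 1 cell of embryo 14, at 52.3 RPRT, while the other Epi cells held 0 to 3.38 RPRT. Of 9 retinoid genes none was called and the median was -2.46. Rdh10, a retinol dehydrogenase, stood at 0.0514 and 0.113 CPM in Epi and 38.3, 24.4 and 18.9 CPM in PrE (adjusted p = 0.0983, and 0.0274 with the block). Dhrs3, a retinal reductase, stood at 0.308 and 20.9 CPM in Epi and 0.0566, 0.154 and 0.14 CPM in PrE (adjusted p = 0.303). Aldh1a1, which oxidises retinal, stood at 0 and 0 CPM in Epi and 3.87, 1.31 and 2.49 CPM in PrE (adjusted p = 0.271).

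Junction and adhesion genes pointed in both directions. Gjb5, which encodes connexin 31.1, was higher in PrE, at 17.1 and 5.21 CPM in Epi and 354, 1275 and 1036 CPM in PrE (log2 fold change -6.30 ± 0.93 SE, adjusted p = 0.00862), and was the only called gene of 29 in its list, whose median was 0.45. Gjc1, described above, was higher in Epi, so that connexin genes were called on both sides. Jam3, a junctional adhesion molecule outside the list, was higher in PrE, at 0.206 and 0.34 CPM in Epi and 193, 67.8 and 57.1 CPM in PrE (log2 fold change -8.68 ± 1.23 SE, adjusted p = 0.00641). Plekha7, a protein of adherens junctions, was higher in Epi, at 53.4 and 46.5 CPM in Epi and 0.0377, 0.0769 and 0.251 CPM in PrE (log2 fold change 8.62 ± 1.64 SE, adjusted p = 0.0362). Cdh1, E-cadherin, stood at 140.2 and 387 CPM in Epi and 170.1, 276 and 316 CPM in PrE (log2 fold change 0.05 ± 0.61 SE, adjusted p = 0.991), and its sums overlapped between the classes. Dsg2, a desmosomal cadherin, stood at 15.6 and 8.05 CPM in Epi and 53, 71.8 and 118 CPM in PrE (adjusted p = 0.219). Icam1, an adhesion receptor, stood at 30.5 and 147 CPM in Epi and 11.5, 6 and 0.335 CPM in PrE (adjusted p = 0.225). None of 9 Eph and ephrin genes was called and their median was -0.79. Ephb3, a receptor, stood at 10.3 and 0.794 CPM in Epi and 21.7, 53 and 163 CPM in PrE (adjusted p = 0.255). Efna3, a ligand, stood at 0.501 and 0 CPM in Epi and 18.2, 5.23 and 17.5 CPM in PrE (adjusted p = 0.366). The receptor Ephb2 stood at 13.5 and 0.34 CPM in Epi and 37.7, 31.8 and 36 CPM in PrE (adjusted p = 0.637), and Ephb4 at 12.8 and 24.7 CPM in Epi and 5.69, 12 and 6.84 CPM in PrE (adjusted p = 0.874). Each of the called genes of this paragraph lost its call without Epi embryo 17. Plekha7 also lost it without PrE embryo 14, 15 or 16, and Gjc1 without PrE embryo 15 or 16.

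Embryo 14, which held both classes, allowed the differences to be chosen in 1 embryo and read in the others, a check added after the data had been seen. Counting only genes outside the lineage factors with at least 50 CPM in 1 class of embryo 14, and setting values below the floor of 3 counts to it, 53 genes were at least 16-fold higher in Epi and 99 at least 16-fold higher in PrE. In the Epi cell of embryo 17, 47 of the 53 (88.7%) lay above both other PrE sums, against 30.4% of all 3478 such genes, and 35 were at least 4-fold higher than the mean of embryos 15 and 16. Of the 99 genes, 88 (88.9%) lay below both, against 43.0% of all, and 83 were at least 4-fold lower. The median log2 ratio in the other embryos was 3.14 for the first set and -6.01 for the second, beside -0.31 over all 3478 genes. The genes are not independent of each other, and 1 Epi cell stands for its class in this comparison. The classes in embryos 15, 16 and 17 had also been set from lineage factor RNA. Genes that vary with those factors would therefore repeat by selection, and this is no independent check.

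Because GATA4 and GATA6 mark the PrE, the short promoters of the called genes were searched for AGATAA on both strands. AGATAA is 1 form of the motif that GATA factors bind, and other forms were not searched. The matches are shown to give the letters behind the count. Promoter windows from 250 bases before to 50 after each start, from RefSeq on GRCm38.p6, were found by symbol for 35 of the 51 PrE-high and 12 of the 18 Epi-high genes. The motif was in 1 of the 35 (2.86%) and 1 of the 12 (8.33%), against 5.99% of the 8252 tested genes with a window. Both matches are printed in the direction of their gene with the motif in capitals, the second as its reverse complement. The Havcr1 match begins 75 bases before the start (chr11:46740136-46740165, plus strand) and the Cobl match 204 bases before it (chr11:12412327-12412356, minus strand).
Havcr1: ggtgtggccaggAGATAAggatggaattct
Cobl: ctcctatcttcaTTATCTtgctgtcacagc
A window without a match says only that these letters are not in it.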

How the data were processed

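Single cells of female C57BL/6J × CAST/EiJ blastocysts were profiled by single-end RNA sequencing. The authors removed low-quality and A- or T-rich reads, aligned the rest to mm10 with TopHat2 2.1.0 and deposited raw counts per gene from HTSeq 0.6.1. The authors also deposited a signal, RPRT, which divides reads by the length reached by reverse transcription and by depth, and an allelic fraction, paternal over paternal plus maternal reads, without the reads behind it. Whether counting used strand is not given in the sources used here.

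Counts of autosomal genes were summed per embryo and class and tested with edgeR 4.0.16 (quasi-likelihood test, TMM, filterByExpr, Benjamini-Hochberg threshold 0.05), with class as the only term. SE is the size of the log2 fold change over the square root of F. Genes were named by a rule: outside the lineage factors, the 10 largest rises and 10 largest falls among called genes whose sums do not overlap and whose mean CPM is at least 50 in the higher class, up to 4 members per list with the lowest p, and 4 markers; other genes named were chosen after their values were seen. A few genes that the rule names are not reported here. The members, the 19 lists and the fit on 5 sums were chosen with earlier results of these data known, among them that the fit on 15 sums called no gene. In simulated counts for 10711 genes the test found 6%, 72%, 96% and 100% of 4-, 16-, 64- and 256-fold changes, with 9 false calls. Alternatives were other scalings, filters and tests (DESeq2 1.42.0, limma 3.58.1), an embryo block, other samples and leaving out each sum. Embryo 14 gave sums of both classes, which pairs them. The correlation within embryo (0.178) was estimated over all 15 sums, because the 5 sums gave no estimate. Among the 15 sums only embryos 4 and 14 gave more than 1 class. No 2 cells held identical counts. Nothing says that embryos came from separate litters. The p-values measure the spread between sums of 9 and 1 Epi cells and of 7, 2 and 4 PrE cells. That spread holds differences between cells as well as between embryos. The main fit does not use the pairing within embryo 14.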

Additional observations from a re-analysis of the deposited data

Results flagged for a closer look

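Among the 10 Epi cells, 25 genes were examined for a cell far from the others on the log2(RPRT + 1) scale, and 2 such values were found, both in the single cell of embryo 17. About 1 in 20 groups gives such a gap by chance, so 2 of 25 is near that rate. The 25 were called genes. The call of 1700011H14Rik rested on this same cell, so its flag is no separate finding. The cell held 230.0 RPRT of 1700011H14Rik, against 0 to 7.35 RPRT in the other Epi cells. It held 2.32 RPRT of Pdzd3, against 0 to 0.374 RPRT in the others. The PrE class, with 13 cells, and the groups of 2 and 3 sums were not examined in this way.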

How the results depend on the processing

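Over the 61 called genes outside the lineage factors and 16 alternatives, none of 976 refits reversed a direction. These genes have sums that do not overlap and log2 fold changes of at least 3.25 in size. A reversal had little room to arise in refits of the same cells, and nothing is read from its absence. The main test called 18 genes higher and 51 lower in Epi. These counts became 166 and 201 without the filter on low counts, 307 and 498 with DESeq2, 105 and 79 with limma-voom, 167 and 108 with limma-voom and embryo as a replicate block, and 0 and 0 with all 15 sums. Without scaling 31 were lower, and with limma on RPRT 48 (pseudocount 1) or 38 (pseudocount 4) were higher. Leaving out a sum gave 0 to 21 higher and 0 to 58 lower. The lowest came without Epi embryo 14, where the lone Epi cell is assumed to vary like the PrE sums. Without Epi embryo 17 there were 4 and 28, and without PrE embryo 16 34 were lower. Basement membrane genes lower in Epi numbered 7, with 12 by DESeq2, 4 without scaling, 0 with 15 sums and 0 to 8 when a sum was left out (3 without Epi embryo 17, 4 without PrE embryo 16). The share of calls higher in Epi was 26.1% in the main fit, 27.8% with DESeq2 size factors and 29.5% without scaling. Leaving out the scaling moved the median log2 fold change of all genes from -0.14 to 0.12. List medians of basement membrane (-3.42 to -1.13), cholesterol (-2.42 to -0.64), ER folding (-1.23 to -0.51), ER to Golgi (-1.50 to -0.53) and endocytosis genes (-1.19 to -0.43) stayed negative in every alternative, also relative to all genes. Glycolysis reached -0.06, and TCA genes ranged from -0.36 to 0.18 relative to all genes, so that their direction turned. The cause of these shifts was not tested. Per-cell RPRT differences kept their direction with a pseudocount of 4 for the 24 genes examined, 9 of which moved by more than the spread between cells. Depth, 2 embryos on the Epi side and 1 cell in embryo 17 limit the comparison: most changes near 4-fold were out of reach. Values with the embryo block come from limma-voom, so both the test and the block differ from the main fit. Of the 69 called genes, limma-voom kept 54 without the block and 61 with it. Besides the genes printed above, Abcc1, Fam213a, Gsdma, Rhpn1 and Tax1bp3 were not called with the block (adjusted p = 0.0516, 0.0676, 0.122, 0.0537 and 0.0516).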

Other observations

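The parental origin of the reads was available for most of the called genes. The paternal fraction was given for at least 5 PrE cells in 43 of the 45 PrE-high genes and for at least 5 Epi cells in 15 of the 16 Epi-high genes, and the medians of these genes' median fractions were 0.472 and 0.534. The fractions come without read counts, so their depth is unknown. Both parental copies were read for the basement membrane genes in PrE cells, with median fractions of 0.604 for Lama1, 0.577 for Lamb1, 0.461 for Lamc1, 0.59 for Col4a1, 0.586 for Col4a2, 0.451 for Serpinh1 and 0.492 for P4ha2. Of the PrE-high genes, 5 had a median at or beyond 0.1 or 0.9 (11.6% of 43), against 16.7% of the 5089 tested genes with a fraction in at least 5 PrE cells. Of the Epi-high genes 4 of 15 did (26.7%), against 16.3% of the 4706 tested genes with a fraction in at least 5 Epi cells.

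Pyy, the peptide hormone gene, was read almost wholly from the paternal copy, with fractions of 0.798 to 1 over 13 PrE cells of 3 embryos (median 0.998) and 12 cells at 0.9 or more. Hkdc1 ranged from 0.758 to 1 in 10 PrE cells (median 0.987). Anxa2, a membrane-binding protein, lay on the maternal side, with 7 of 8 PrE cells at 0.1 or less. Among the Epi-high genes, Mylpf lay between 0.107 and 0.424 in all 10 Epi cells (median 0.247), on the maternal side in each. All E4.0 embryos had a CAST/EiJ father, so that parent and strain cannot be told apart.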
